A study of Homo sapiens with 5 samples.

Results

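The G2 and mitosis genes are 50 genes whose products carry a cell through the G2 phase and through mitosis. They were chosen by gene symbol for their role in G2 and mitosis, and the rule uses no measured value, although earlier results of these data were known when the list was made. All 50 were found among the 12474 gene rows of the data, and all 50 were among the 12145 genes that passed a filter on low counts. MDA-MB-468 is a triple-negative breast cancer line with amplified EGFR, and the cells carried expressed lineage barcodes. They were untreated (day 0, D0, 2 libraries) or were exposed for 3, 6 or 9 days to afatinib at 250 nM (D3, D6 and D9, 1 library each), a drug that binds EGFR and ERBB2 irreversibly and blocks their kinase activity. All groups were the barcoded cells of this line, frozen and thawed before capture, and the D0 libraries were 2 captures run in different flow cells. Transcripts were counted as unique molecular identifiers (UMIs) near the 3′ end in 4101 cells. The comparison asks how the mitotic programme of the surviving cells differed from that of untreated cells at D0. No untreated library was taken at D3, D6 or D9. Drug exposure therefore cannot be told apart from days in culture or from differences between captures. An afatinib effect below means the difference of the afatinib libraries from D0.

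Entry into mitosis is driven by the kinase CDK1 with its cyclin B partners. Spindle proteins, kinesins and kinetochore proteins then attach and align the chromosomes, and the anaphase-promoting complex (APC/C) with its activator CDC20 releases the sister chromatids once the spindle checkpoint is satisfied. Transcripts of this programme build up in G2 and are low in G1, because promoters with a CHR element (cell cycle genes homology region) are held silent by the DREAM complex in G1 and are activated later by B-MYB and FOXM1. Their level in a culture therefore depends both on how many cells are in G2 or mitosis and on how much transcript each such cell holds, and in counts summed over a library these cannot be told apart.

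The shared promoter element can be seen in the members. RefSeq promoters (GRCh38.p14, 250 bases before to 50 bases after the start) were matched by symbol for 42 of the 50 genes. The CHR consensus TTTGAA, read on both strands (so also TTCAAA), was present in 30 of these 42 windows (71.4%), against 15.4% of 27305 promoters and 9.73% of the 9635 promoters of tested genes. The related hexamer TTTAAA, which is its own complement, stood in 13 of 42 (31.0%), against 7.40% of the promoters of tested genes. Either kind was present in 35 of 42 (83.3%), against 15.6%. A hexamer ending 0 to 30 bases before the start was found in 13 of 42 (31.0%), against 2.03%. The CCAAT box (CCAAT or ATTGG), which often lies upstream of a CHR, was present in 30 of 42 (71.4%), against 37.6%. The windows below are shown because they hold the hexamer (in capitals) closest to the start before it for a few members described later. The first pair belongs to genes that fell under afatinib, and the others to genes without a call.
CCNB1: agcagtgcggggTTTAAAtctgaggctagg
CKS2: cgggctgtcggaTTCAAAtccggatcgttg
CCNB2: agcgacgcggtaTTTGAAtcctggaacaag
PLK1: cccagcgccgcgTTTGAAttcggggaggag
HMMR: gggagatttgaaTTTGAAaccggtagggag
MKI67: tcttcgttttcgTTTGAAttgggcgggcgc
CENPA: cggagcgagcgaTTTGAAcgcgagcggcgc
KIF11: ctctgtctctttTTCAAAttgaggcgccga
They are written 5′ to 3′ on the strand of the gene and lie at chr5:69167108-69167137 (plus strand), chr9:89311154-89311183 (plus), chr15:59105105-59105134 (plus), chr16:23678848-23678877 (plus), chr5:163460598-163460627 (plus), chr10:128126435-128126464 (minus), chr2:26786026-26786055 (plus) and chr10:92593090-92593119 (plus). In CCNB2, PLK1 and MKI67 the hexamer TTTGAA ends 23 bases before the annotated start. CDC20 and DLGAP5, which also fell, hold hexamers farther upstream.
CDC20: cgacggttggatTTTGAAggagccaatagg
DLGAP5: cctttcaatcaaTTCAAAtatcgcacggag
These lie at chr1:43358904-43358933 (plus strand) and chr14:55191677-55191706 (minus strand), and their hexamers end 59 and 103 bases before the start. A match is only a run of letters and says nothing of binding, and KNSTRN, which fell most, had 0 hexamers in its window.

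The libraries held 479, 942 and 1139 cells at D3, D6 and D9, against 478 and 1063 untreated cells. Their total counts ran from 14517579 to 28148379. The RNA differed in make-up: mitochondrially encoded transcripts took 17.2%, 16.0% and 8.82% of counts at D3, D6 and D9, against 7.25% and 7.80% in the untreated libraries, and the nuclear RNAs MALAT1 and NEAT1 rose (log2 fold changes 1.20 ± 0.36 and 1.26 ± 0.26). Their part in the results on the members was not tested. Of 12 markers of blood, endothelial, fibroblast or hormone receptor-positive cells, 10 were not among the gene rows analysed here, and the 2 present were low. No label states whether the pair of D0 libraries came from separate cultures, so each p-value measures only the spread between the libraries, which may be technical. That spread also holds any differences between D3, D6 and D9, which served as replicates of treatment in the tests. The deposited counts had also been adjusted for the 2 D0 captures. This brings the untreated libraries closer to each other, and p-values that rest on their spread may be too small. Among members whose counts of 1 and of 3 each occurred in at least 10 cells, no cell held a count of 2 for 11 of 50 genes in untreated replicate 2 and for 19 to 23 of 48 or 49 genes in the other 4 libraries. Whether these gaps come from the adjustment was not tested.

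Summed over all cells, the G2 and mitosis genes were modestly lower under afatinib. Of the 50 genes, 9 fell (KNSTRN, CDC20, AURKA, BIRC5, CKS2, DLGAP5, G2E3, CCNB1 and CDCA2), 0 rose and 41 had no call (edgeR quasi-likelihood test on counts summed per library, 3 afatinib against 2 untreated libraries, Benjamini-Hochberg adjusted p under 0.05 over 12145 genes). The background was 10.1% of all genes fallen and 13.1% risen. At an unadjusted p under 0.05, 21 members were lower and 0 higher, and DESeq2 and limma-voom also called 0 members higher. For the unadjusted counts here and below, the share of all genes was not counted. The estimate was negative for 44 of the 50, and the median log2 fold change was -0.29, against 0.05 over all genes tested. In 32 of the 50 all 3 afatinib libraries lay below both untreated libraries, as they did in 26% of all genes, in 1 (GAS2L3) they lay above, against 31.7% of all genes, and in 17 the groups overlapped. The call rested on both untreated libraries: without untreated replicate 1 or without untreated replicate 2 the test called 0 members (7 and 6 lower at an unadjusted p under 0.05) and 1.6% and 1.14% of all genes fallen, while the median stayed at -0.30 and -0.25. The fit without untreated replicate 2 used only the 4 libraries with the larger number of such gaps. Without D9 the test called 32 members, with 27.3% of all genes fallen, and without D6 it called 3, with 5.45% of all genes. A linear trend in days called 0 members (12 at an unadjusted p under 0.05) and 3.69% of all genes.

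**Figure D1:**
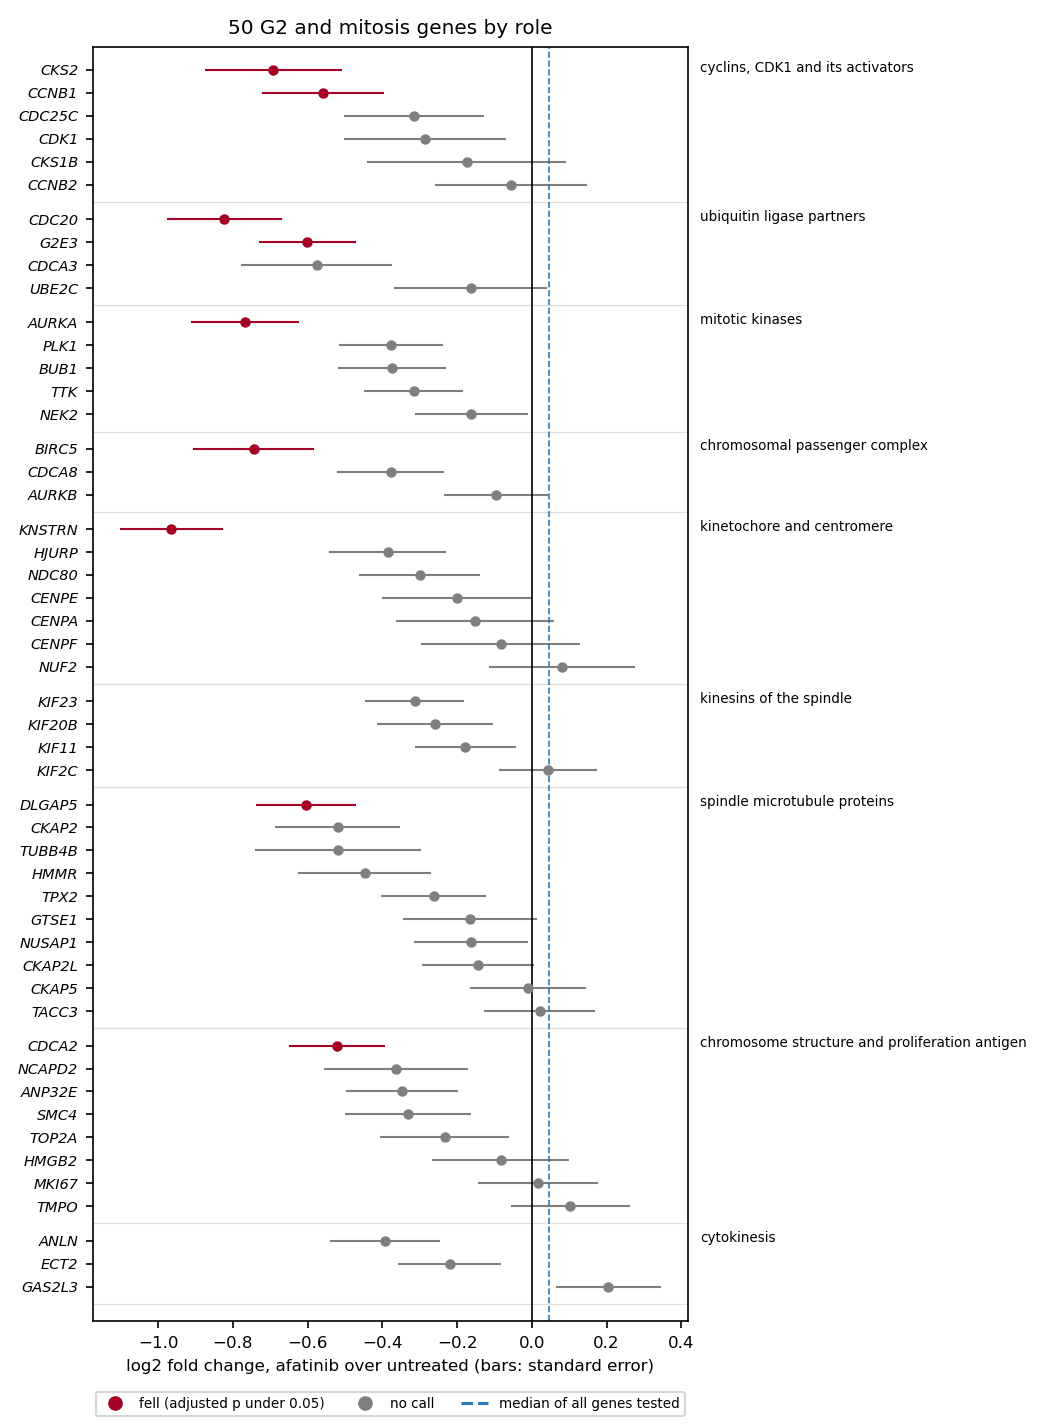
Log2 fold change of each of the 50 genes, afatinib over untreated, grouped by role (x axis; points are estimates of the quasi-likelihood fit, bars are standard errors, red marks an adjusted p under 0.05). The 9 red points lie between -0.52 and -0.96, and only 6 of the 50 estimates lie above 0.

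Among the cyclins, CDK1 and its activators, 2 of 6 genes fell and the median log2 fold change was -0.30. Levels are given as CPM (counts per 1000000 counts of the library, scaled by the TMM factors of the fit), and fold changes as log2 values with their standard error. CCNB1, which encodes cyclin B1, the activating partner of CDK1 (chr5:69167135-69178245, plus strand, GRCh38), had 139, 124 and 156 CPM at D3, D6 and D9, against 205 and 206 CPM in the untreated libraries, and fell with a log2 fold change of -0.56 ± 0.16 (adjusted p = 0.044). CKS2, a small subunit that binds CDKs (chr9:89311195-89316703, plus strand), had 225, 217 and 284 CPM at D3, D6 and D9, against 393 and 389 CPM in untreated cells (log2 fold change -0.69 ± 0.18, adjusted p = 0.0327). In both genes D9 was the highest afatinib library and still lay below both untreated libraries. CDK1 itself had 176, 170.4 and 258 CPM at D3, D6 and D9, against 246 and 246 CPM (adjusted p = 0.363), and CKS1B, the paralog of CKS2, had 207, 197 and 349 CPM at D3, D6 and D9, against 286 and 281 CPM (adjusted p = 0.663). For CDK1 and CKS1B the D3 and D6 libraries were below the untreated ones and the D9 library was above them. CCNB2, the second B-type cyclin, overlapped between groups, and CDC25C, the phosphatase that activates CDK1, was low throughout (6.54 to 9.35 CPM) without a call.

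The partners of the ubiquitin ligases had the most negative median of the role groups (-0.59), and 2 of 4 fell. CDC20, the activator of the APC/C (chr1:43358981-43363203, plus strand), had 149.6, 139 and 157 CPM at D3, D6 and D9, against 256 and 269 CPM in untreated cells, with a log2 fold change of -0.82 ± 0.15 (adjusted p = 0.0109). G2E3, a ubiquitin ligase named for its expression in G2 (chr14:30559158-30620064, plus strand), had 22.4, 21.3 and 23.3 CPM at D3, D6 and D9, against 32.5 and 35.1 CPM (log2 fold change -0.60 ± 0.13, adjusted p = 0.0172). In both genes the afatinib libraries lay close to each other and well below the untreated pair. CDCA3, a trigger of mitotic entry, had 29.5, 21.6 and 35.2 CPM at D3, D6 and D9, against 42 and 44 CPM, and narrowly missed the threshold (adjusted p = 0.0753). UBE2C, the ubiquitin-conjugating enzyme of the APC/C, had 181, 171 and 251 CPM at D3, D6 and D9, against 227 and 224 CPM, and its groups overlapped through D9.

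Of the 5 mitotic kinases 1 fell. AURKA, which matures the centrosomes and the spindle poles (chr20:56369389-56392337, minus strand), had 67.8, 57.7 and 57.6 CPM at D3, D6 and D9, against 105 and 103 CPM in untreated cells (log2 fold change -0.77 ± 0.14, adjusted p = 0.0113). PLK1, which acts from mitotic entry to cytokinesis, had 69, 65.6 and 75.1 CPM at D3, D6 and D9, against 90.4 and 91.1 CPM (adjusted p = 0.0865). NEK2, which separates the centrosomes, had 50.1, 54.5 and 63.4 CPM at D3, D6 and D9, against 62.6 and 62.8 CPM, and its groups overlapped. The checkpoint kinases TTK and BUB1 lay below both untreated libraries on every day without a call (log2 fold changes -0.32 and -0.37). In the chromosomal passenger complex, which corrects wrong attachments of chromosomes, BIRC5 fell while the kinase of the complex did not pass. BIRC5, or survivin (chr17:78214186-78225636, plus strand), had 176, 165 and 144.5 CPM at D3, D6 and D9, against 270.4 and 272 CPM (log2 fold change -0.74 ± 0.16, adjusted p = 0.0178). CDCA8, or borealin, had 62.9, 71.4 and 60.6 CPM at D3, D6 and D9, against 84.1 and 84.8 CPM (adjusted p = 0.0914), and the kinase AURKB had 60.4, 55.2 and 64.9 CPM at D3, D6 and D9, against 64.9 and 63.8 CPM (adjusted p = 0.648). In these sums, with 1 library a day, BIRC5 was lowest at D9, and CCNB1, CKS2 and CDC20 were lowest at D6. In cells thinned to equal depth (below), the share with a UMI was lowest at D3 for CCNB1 and CKS2. It was lowest at D6 for CDC20 and at D9 for BIRC5.

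**Figure D2:**
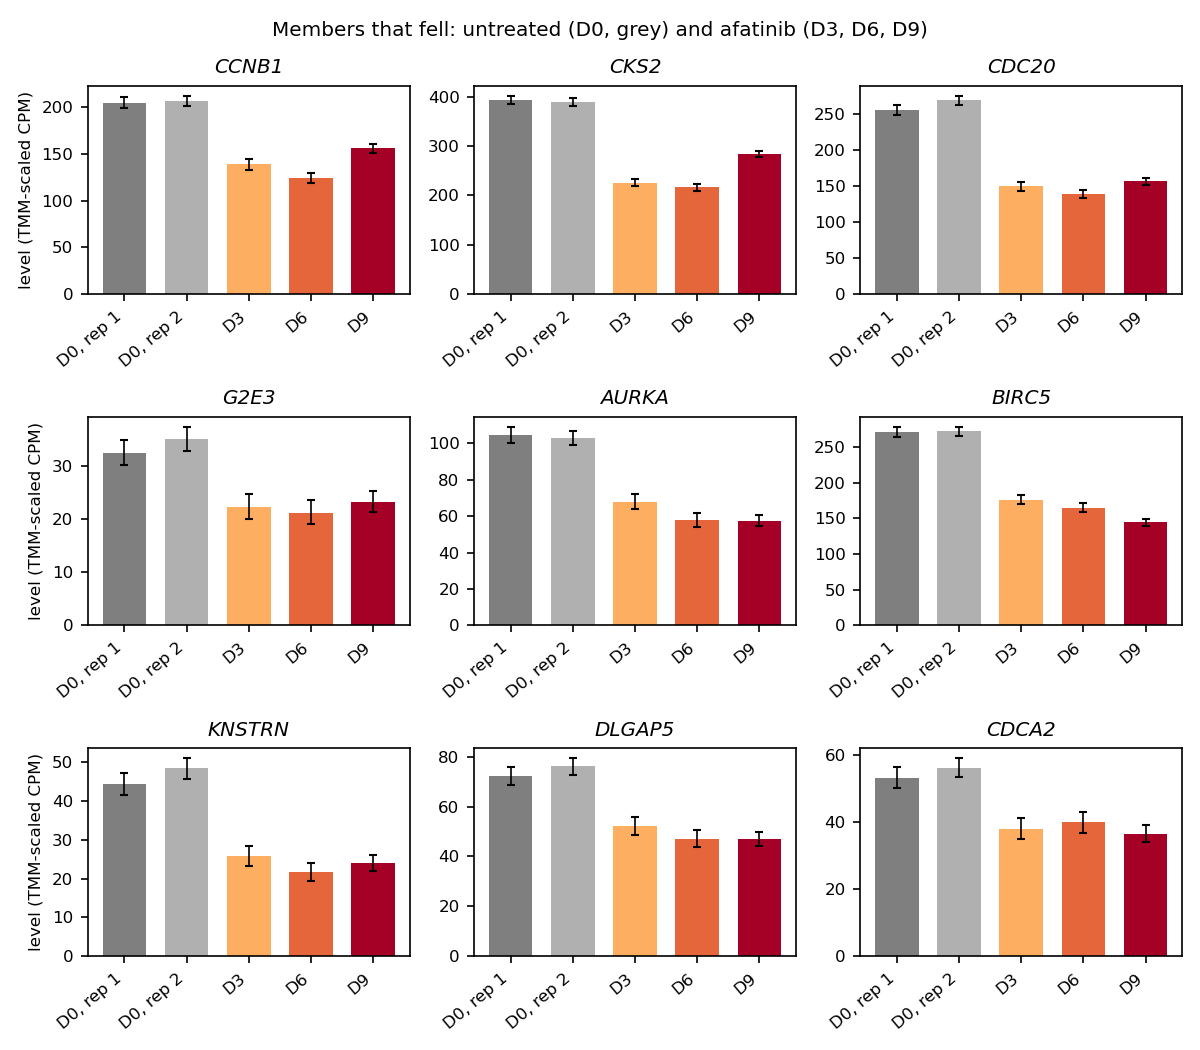
Level of the 9 genes that fell in every library (y axis, TMM-scaled CPM, from 0; x axis, untreated D0 replicates in grey, then D3, D6 and D9 of afatinib; bars are 1 library each and error bars are exact 95% Poisson intervals of the counts, which cover counting error only). In each of the 9 genes the 3 afatinib libraries lie below both untreated libraries.

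At the kinetochore and centromere, 1 of 7 genes fell, and it had the lowest fold change of all 50. KNSTRN, a small protein of the spindle and kinetochore (chr15:40382721-40394288, plus strand), had 25.7, 21.6 and 24 CPM at D3, D6 and D9, against 44.3 and 48.4 CPM in untreated cells (log2 fold change -0.96 ± 0.14, adjusted p = 0.00464). CENPF had 619, 619 and 451 CPM at D3, D6 and D9, against 562 and 631 CPM (adjusted p = 0.801), and the NDC80 gene, of the complex that binds microtubules, had 109, 91.8 and 117 CPM at D3, D6 and D9, against 129 and 132 CPM (adjusted p = 0.209). CENPF did not separate by treatment, and its D9 library was the lowest of the 5. CENPE, a kinesin of the kinetochore, had 103, 80.4 and 66.6 CPM at D3, D6 and D9, against 93.3 and 98.3 CPM (adjusted p = 0.495). NUF2, a partner of NDC80 in the same complex, had the opposite sign to the group median, with 53.3, 48.9 and 74 CPM at D3, D6 and D9, against 56.1 and 55.1 CPM (log2 fold change 0.08 ± 0.20, adjusted p = 0.789). The histone variant CENPA and its chaperone HJURP had no call (log2 fold changes -0.15 and -0.39).

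None of the 4 spindle kinesins passed the test. KIF20B had 127, 104 and 115 CPM at D3, D6 and D9, against 135 and 141 CPM in untreated cells (adjusted p = 0.255), and KIF23, the motor of the central spindle, had 53.1, 55.7 and 58.3 CPM at D3, D6 and D9, against 68.6 and 69.9 CPM (adjusted p = 0.121). KIF2C, which depolymerises microtubules, had 60.7, 62.6 and 62 CPM at D3, D6 and D9, against 61.6 and 58.3 CPM, an estimate of 0.04 ± 0.13 (adjusted p = 0.831). For KIF20B and KIF23 every afatinib library was below both untreated libraries, whereas for KIF2C the libraries were mixed, and KIF11, which pushes the spindle poles apart, had a log2 fold change of -0.18 without a call. Among 10 spindle microtubule proteins 1 fell. DLGAP5, which stabilises microtubules near chromosomes (chr14:55148112-55191608, minus strand), had 52.1, 47.2 and 46.9 CPM at D3, D6 and D9, against 72 and 76.1 CPM (log2 fold change -0.60 ± 0.13, adjusted p = 0.0185). TUBB4B, a beta-tubulin, had 423, 406 and 599 CPM at D3, D6 and D9, against 691 and 674 CPM (log2 fold change -0.52 ± 0.22, adjusted p = 0.127). The difference was near that of CDCA2, the called gene with the smallest change, and D9 lay closer to the untreated level than D3 and D6. NUSAP1 had 167, 150.2 and 148 CPM at D3, D6 and D9, against 174 and 173 CPM, and TPX2, which activates AURKA on the spindle, had 128, 128 and 126 CPM at D3, D6 and D9, against 152 and 154 CPM (adjusted p = 0.464 and 0.21). TACC3 was the member of this group with a positive estimate (73.3, 72.5 and 62 CPM at D3, D6 and D9, against 64.6 and 71.8 CPM, log2 fold change 0.02 ± 0.15, adjusted p = 0.928). Of the others, CKAP2 and HMMR lay below both untreated libraries on all days (log2 fold changes -0.52 and -0.45, adjusted p = 0.06 and 0.104), GTSE1 did so narrowly, and CKAP2L and CKAP5 overlapped.

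Of 8 genes of chromosome structure and the proliferation antigen, 1 fell. CDCA2, which targets a phosphatase to chromatin (chr8:25459199-25507911, plus strand), had 37.9, 39.9 and 36.5 CPM at D3, D6 and D9, against 53.2 and 56.2 CPM in untreated cells (log2 fold change -0.52 ± 0.13, adjusted p = 0.0253). HMGB2 had 261, 246 and 322 CPM at D3, D6 and D9, against 295 and 291 CPM, TOP2A, the topoisomerase that untangles sister chromatids, had 258, 246 and 207 CPM at D3, D6 and D9, against 269.7 and 287 CPM, and neither passed (adjusted p = 0.768 and 0.354). MKI67, the Ki-67 antigen used to count dividing cells, had 238, 237 and 211 CPM at D3, D6 and D9, against 219 and 233 CPM (log2 fold change 0.02 ± 0.16, adjusted p = 0.95). Its standard error was larger than its estimate, and the sign changed in 10 of 16 alternative settings. TMPO, a protein of the inner nuclear membrane, had 139.6, 156 and 128 CPM at D3, D6 and D9, against 135 and 128 CPM (log2 fold change 0.10 ± 0.16, adjusted p = 0.669). The condensin subunits SMC4 and NCAPD2 and the histone chaperone ANP32E were below both untreated libraries on all days without a call (log2 fold changes -0.33, -0.36 and -0.35). In cytokinesis, ANLN had 88.4, 95.5 and 104 CPM at D3, D6 and D9, against 125 and 127 CPM (adjusted p = 0.0906), and ECT2, which activates RhoA at the midzone, had 58.4, 66.5 and 63.8 CPM at D3, D6 and D9, against 70.6 and 75.9 CPM (adjusted p = 0.278). GAS2L3, which links actin and microtubules, was the 1 member above both untreated libraries on every day, with 27.1, 26.9 and 24 CPM at D3, D6 and D9, against 21.1 and 24 CPM (log2 fold change 0.20 ± 0.14, adjusted p = 0.32), and its D9 library and untreated replicate 2 were equal to the digits shown.

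The days did not move as a block. Ratios are log2 values of the TMM-scaled level plus 0.5 CPM over the mean of the untreated libraries, and since each day has 1 library they carry no test. The median ratio of the members at D3, D6 and D9 was -0.26, -0.36 and -0.27, against medians of 0.04, 0.01 and 0.06 over all genes. When each cell was thinned at random to 5000 UMIs, so that all cells weighed the same, it was -0.55, -0.36 and -0.33. The lowest day was thus D6 in the sums of all counts and D3 in thinned cells. Past a 2-fold drop there were 0, 1 and 0 members at D3, D6 and D9, against 3.58%, 5.11% and 6.59% of all genes, and past a 2-fold rise 0 on each day, against 5.01%, 5.81% and 4.28%. The 1 gene was KNSTRN at D6 (-1.09), with CDCA3 just inside the limit (-0.98). No member moved 2-fold between D3 and D6 (background 0.593% lower and 0.371% higher) or between D6 and D9 (2.69% lower and 0.601% higher).

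Between D6 and D9 the members moved in both directions. The D9 level was above the D6 level for 26 members and below it for 24. The median log2 ratio of D9 over D6 was 0.0086 for the members, against -0.0075 over all genes tested. The shares of all genes above, below or at 0.5 or more were not counted. CKS1B had 0.83, CDCA3 0.69, CENPA 0.68, CCNB2 0.62, CDK1 0.60, NUF2 0.59, TUBB4B 0.56 and UBE2C 0.55 as log2 ratios of D9 over D6, and these 8 were the members at 0.5 or more. At the other end were GTSE1 (-0.47), CENPF (-0.46), NCAPD2 (-0.45) and CKAP2 (-0.30). The 2 untreated libraries, which were adjusted towards each other, differed by at most 0.18 on this scale in any member. At D9, CDK1, CCNB2, CKS1B, UBE2C, CENPA and NUF2 were thus at or above the untreated mean (ratios 0.07, 0.28, 0.30, 0.16, 0.21 and 0.41), while BIRC5 (-0.91), AURKA (-0.84) and KNSTRN (-0.94) stayed low. The mitochondrial share was 16.0% at D6 and 8.82% at D9, and its part in this difference was not tested.

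**Figure D3:**
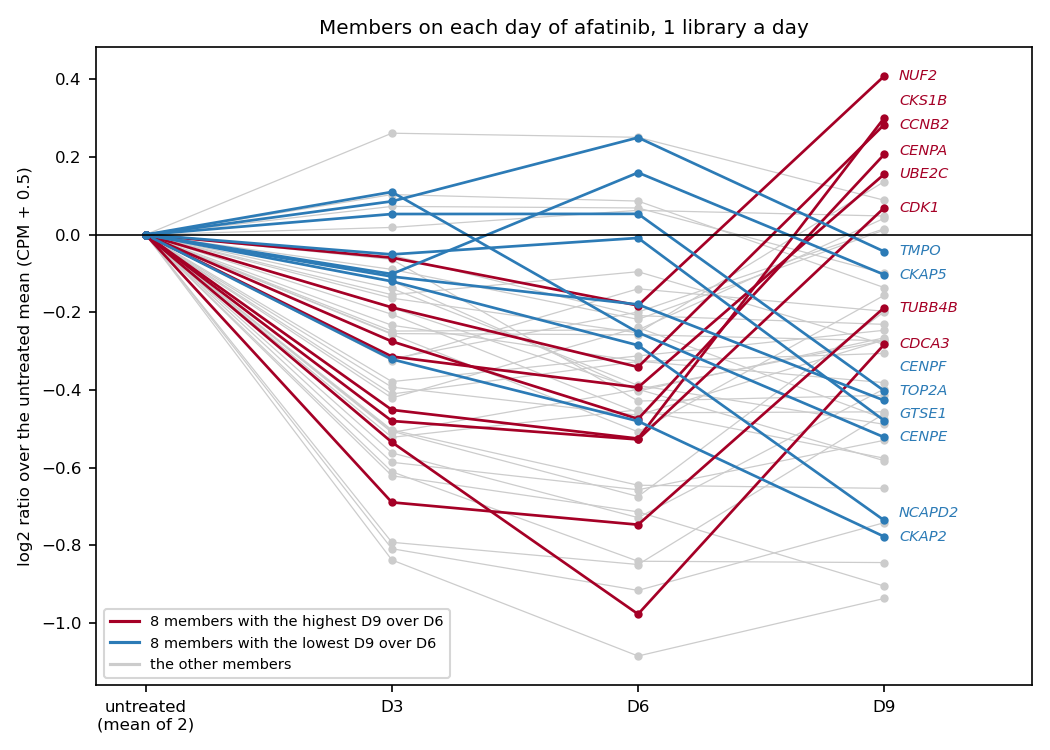
Log2 ratio of each member to the mean of the 2 untreated libraries at D3, D6 and D9 of afatinib (y axis, TMM-scaled CPM + 0.5; 1 library a day, no error bars). Red marks the 8 members with the highest ratio of D9 over D6 and blue the 8 with the lowest. They were picked by that ratio, so the choice itself sets their direction after D6.

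In single cells the summed level was lower under afatinib from the lower to the upper quartile and overlapped at the 90th percentile. Cells were thinned to 5000 UMIs each, so that depth did not set detection. The median cell held 21, 22 and 24 UMIs of the 50 genes at D3, D6 and D9, against 27.5 and 28 UMIs in the untreated libraries. The lower quartile was 7, 8 and 7 UMIs, against 16 and 14 UMIs in untreated cells. The upper quartile was 37.5, 37.75 and 41 UMIs at D3, D6 and D9, against 45 and 47 UMIs in untreated cells. The 90th percentile was 62.2, 60 and 71 UMIs, against 62 and 66 UMIs, so the groups overlapped there. At least 20 of the 50 genes were detected in 29%, 31.8% and 34.5% of cells at D3, D6 and D9, against 43.1% and 41.9% of untreated cells.

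Gene by gene, the share of thinned cells with a UMI was below both untreated libraries in all 3 afatinib libraries for 29 members, against 16.5% of all genes tested, above them for 1 (KIF2C), against 32.7%, and overlapping for 20. CKS2 was detected in 37.2, 44.4 and 53.8% of cells at D3, D6 and D9, against 64 and 65.9% of untreated cells, a difference of -19.9 points. CDC20 was detected in 35.3, 35.1 and 38.5% of cells, against 57.7 and 54.6% (-19.8 points), and BIRC5 in 42.8, 41.1 and 40.6%, against 61.5 and 59.8% (-19.2 points). CCNB1 followed with 28.4, 30.9 and 32.5% of cells, against 47.7 and 44.2% of untreated cells. These shares did not overlap between the groups. MKI67 was detected in 56.4, 54.7 and 48.3% of cells, against 53.6 and 56.4%, and its groups overlapped. With 3 against 2 libraries the two-sided exact permutation test cannot go below p = 0.1, a value that 20 members reached. The share of all genes at that value was not counted. Differences ran from -19.9 to 1.70 points. Without thinning all 50 means were lower under afatinib, but there the depth of the cells differs between the groups. The median cell held 22715, 13862 and 20216 UMIs of all genes at D3, D6 and D9, against 45658.5 and 25252 UMIs in the untreated libraries. Because all cells are of 1 line, no cell type that lacks these genes was there to give a background share.

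A group of 8 members (CDK1, TOP2A, NUSAP1, UBE2C, TPX2, BIRC5, CCNB2 and MKI67) served as anchor genes to mark cells with a mitotic transcript programme, and the other 42 members were then read in the marked and the unmarked cells. Mitotic-transcript-high cells had a UMI in at least 4 of the 8 after thinning. They made up 45.7%, 48.1% and 49.4% of cells at D3, D6 and D9, against 54.6% and 53.5% of untreated cells (exact binomial 95% intervals 41.2 to 50.3%, 44.9 to 51.3% and 46.5 to 52.4%, against 50.02 to 59.1% and 50.5 to 56.6%). The mark is a range on a continuous scale, and 23.6%, 21.9% and 20.7% of afatinib cells lay at the limit or 1 gene below it, against 27.4% and 26.2% of untreated cells. With another random seed of the thinning the shares were 46.6%, 47.3% and 50.04% at D3, D6 and D9, against 57.9% and 55.7%. The low end of that scale did not overlap between the groups, and its high end did. No anchor gene was detected in 19.4%, 17.8% and 23.9% of afatinib cells, against 5.86% and 5.93% of untreated cells, a mean of 20.4% ± 3.14 against 5.89% ± 0.0487 (SD, n = 3 and 2; exact permutation p = 0.1, the smallest possible). With the other random seed the means were 21.0% ± 2.13 and 6.17% ± 0.743, so the small untreated SD depends on the draw. At least 7 anchor genes were detected in 10.9%, 11.1% and 14.9% of afatinib cells, against 12.8% and 14.0% of untreated cells, which overlapped. The shares at both ends were chosen after the data were seen. Within cells under 10% mitochondrial counts, where D3 and D6 keep 85 and 188 cells, the share without an anchor gene was 20%, 23.4% and 25.8% under afatinib, against 6.33% and 5.23% in untreated cells.

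**Figure D4:**
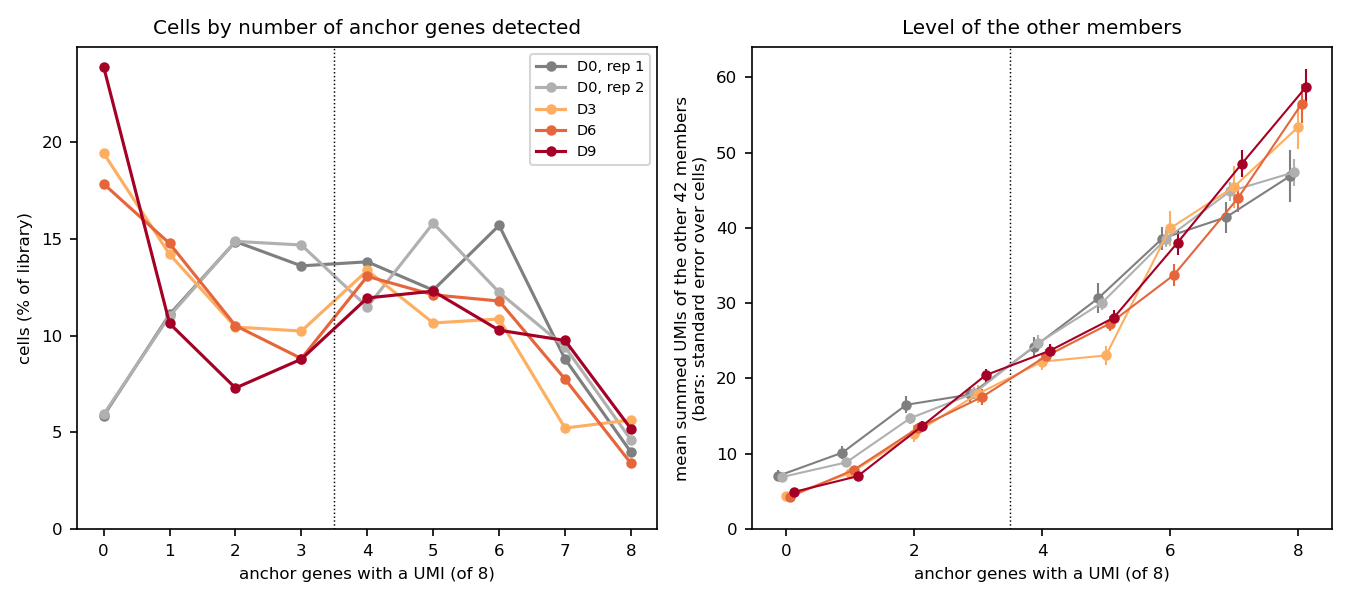
Left, share of cells (y axis, % of each library) by the number of the 8 anchor genes with a UMI after thinning to 5000 UMIs (x axis). Right, mean summed UMIs of the other 42 members at each number of anchor genes (bars, standard error over cells, which are not replicates). The dotted line is the limit of 4 genes. The afatinib libraries (orange to dark red) hold 17.8% to 23.9% of their cells at 0 anchor genes, the untreated libraries (grey) 5.86% and 5.93%.

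Inside the mitotic-transcript-high cells the summed level of the other 42 members overlapped between treated and untreated libraries, while single members differed in both directions. Their summed level there was 33.1, 32.4 and 36.3 UMIs per 5000 at D3, D6 and D9, against 34.2 and 34.9 in untreated cells, and the groups overlapped. In the remaining cells it was 9.32, 9.40 and 9.31 UMIs per 5000, against 14.1 and 13.4 in untreated cells, which did not overlap. Single members were also read in the thinned cells. Of the 42 in the high cells, all 3 afatinib libraries lay below both untreated libraries for 9 and above them for 5, and 28 overlapped. In the remaining cells these numbers were 25, 0 and 17. The shares of all genes were not counted. Cells with no anchor gene held on average 4.34, 4.29 and 4.92 UMIs of the 42 genes under afatinib, against 7.07 and 6.92 UMIs in untreated cells. At 1, 2, 4 and 5 anchor genes the afatinib libraries were also below both untreated libraries, the last pair of steps within the high cells (at 5 genes 23.1, 27.3 and 28.1 UMIs, against 30.7 and 30.1 UMIs). At 3, 6 and 7 anchor genes the libraries overlapped, and at all 8 the afatinib libraries were higher, with 53.4, 56.5 and 58.6 UMIs, against 46.9 and 47.4 UMIs. The mitochondrial share in the remaining cells was 18.3%, 16.3% and 8.72% at D3, D6 and D9, against 7.33% and 8.32% in untreated cells, and its part in these levels was not tested.

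The test on counts summed within each class gave the same division by gene. In mitotic-transcript-high cells 4 of the 42 genes fell (CDC20, G2E3, KNSTRN and AURKA), against 10.1% of all genes, with a median log2 fold change of -0.16. In the remaining cells 27 of 42 fell, against 8.6% of all genes, with a median of -0.73. The 4 genes that fell in the high cells also fell in the remaining cells. The tests within and between the classes were chosen after the data were seen. The difference between the classes was tested in 1 model with the library as a block (edgeR quasi-likelihood test of the interaction, 12115 genes). The afatinib effect was more negative in the remaining cells for 36 of the 42, against 2.39% of all genes, and more positive for 0 (0 also at an unadjusted p under 0.05). All 42 estimates were negative, with a median of -0.66. Without untreated replicate 1 or 2 the median was -0.69 and -0.62. Without each afatinib library in turn the count of 36 became 32 to 34, against 1.96% to 2.25% of all genes. In counts summed from thinned cells, where each cell weighs the same, it was 16 (0.583% of all genes), with 41 of 42 estimates negative and a median of -0.63. The count of genes fallen in the remaining cells was less stable: it was 7 and 6 of 42 without untreated replicate 1 or 2 (background then 1.35% and 1.2%), with medians of -0.77, and 37 without D9, where 23.8% of all genes fell.

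In the sums of all counts the gap was widest for DLGAP5, with a log2 fold change of -0.37 in the high cells and -1.60 in the remaining cells (difference -1.26 ± 0.12, adjusted p = 1.6e-09). CCNB1 had -0.30 in the high and -1.46 in the remaining cells (difference -1.17 ± 0.09, adjusted p = 5.92e-13), and CENPA, for which the sums over all cells gave no call, had 0.09 and -1.04 (difference -1.15 ± 0.11, adjusted p = 7.28e-10). PLK1 and HMMR followed, with differences of -1.13 ± 0.12 and -1.04 ± 0.11 (adjusted p = 1.55e-08 and 3.12e-09). In thinned cells the order was another one, with -1.33 ± 0.15 for CCNB1, -1.24 ± 0.20 for HMMR and -1.16 ± 0.26 for DLGAP5 (adjusted p = 2.51e-14, 3.98e-07 and 0.0045). CENPA was at -0.76 ± 0.21 there (adjusted p = 0.0429), and its level in the remaining cells overlapped, with 19.2, 17.2 and 29.2 CPM at D3, D6 and D9, against 27.6 and 40.1 CPM in untreated cells. KNSTRN fell in both classes (-0.77 and -1.53), and G2E3 did so with no call on the difference (-0.49 and -0.74, adjusted p = 0.438). The 6 genes with no call on the difference were CDCA3, CKAP2, G2E3, TMPO, GAS2L3 and CKAP5. CKAP5 had 0.05 in the high cells and 0.01 in the remaining cells. The classes were cut on members that vary together with the other 42, so the limit itself may hold the high cells of the groups close to each other, which was not tested. The remaining cells take up the larger share of cells without an anchor gene. A lower level within like cells and a changed make-up of the remaining cells cannot be told apart in this comparison. With a gap between the classes (at least 5 against at most 1 anchor gene, chosen after the data were seen) 28 of 42 were more negative, against 1.52% of all genes.

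**Figure D5:**
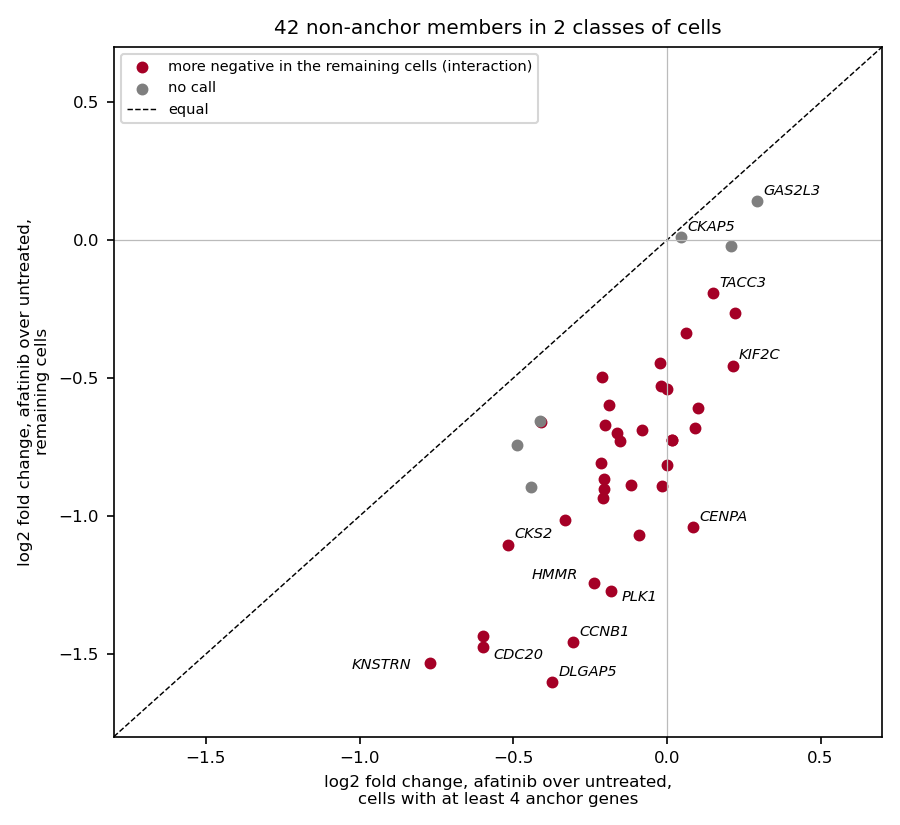
Log2 fold change of the 42 members that are no anchor genes, afatinib over untreated, in mitotic-transcript-high cells (x axis) and in the remaining cells (y axis); the dashed line marks equal change. All 42 points lie below the line, and the 36 red points have an adjusted p under 0.05 for the difference.

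The members varied together from cell to cell. Over thinned cells within a library, the correlation of a member with the summed UMIs of the other 49 (log scale) had a median of 0.41 over the members, from 0.15 for CDC25C to 0.72 for CENPF, as the mean of the 5 libraries, and was above 0.1 in every library for all 50. These are descriptions over 478 to 1139 cells that share a library and a low depth. TOP2A (0.65), MKI67 (0.58) and UBE2C (0.56) followed CENPF. Among the fallen genes CCNB1, CDC20 and CKS2 had values of 0.53, 0.53 and 0.52, while KNSTRN had 0.27 and G2E3 0.21, near the bottom of the list. Of 4982 other genes that were detected in 10% or more of the thinned cells of each library, the 15 most like the summed members were ASPM (0.56), UBE2S (0.52), KPNA2 (0.49), ARL6IP1 (0.46), PTTG1 (0.45), PRC1, TUBA1C, SGO2, DEPDC1, KIF14, KIF4A, TUBB, KNL1, KIFC1 and TUBA1B (0.36). The summed UMIs of 44 S phase genes had correlations with those of the members of 0.08, 0.05 and 0.14 at D3, D6 and D9, against -0.05 in both untreated libraries.

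Other genes of the pathway were read from fixed lists in the same fit, with the backgrounds above of 10.1% fallen and 13.1% risen. Of 22 transcription regulators of the programme 2 rose and 1 fell. FOXM1, the activator of late G2 genes, had 71.3, 74.8 and 63.5 CPM at D3, D6 and D9, against 55.8 and 53 CPM in untreated cells, above both libraries on every day but without a call (log2 fold change 0.36 ± 0.14, adjusted p = 0.105). MYBL2, which encodes B-MYB, had 116, 115 and 98.2 CPM at D3, D6 and D9, against 117 and 131 CPM (adjusted p = 0.435). E2F2 rose (49.6, 62.6 and 40.2 CPM at D3, D6 and D9, against 18.3 and 21.1 CPM, log2 fold change 1.37 ± 0.21, adjusted p = 0.00588), as did RBL1, the p107 pocket protein (0.66 ± 0.19, adjusted p = 0.0455), and MYBL1 fell (-0.62 ± 0.14, adjusted p = 0.0197).

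Of 13 G1 cyclins, CDKs and CDK inhibitors 1 rose and 3 fell. CDKN2C, the CDK4/6 inhibitor p18, rose (29.8, 33.4 and 41.9 CPM at D3, D6 and D9, against 17.9 and 16.1 CPM, log2 fold change 1.05 ± 0.18, adjusted p = 0.00853). CDKN1A, which encodes the CDK inhibitor p21, fell (9.98, 12.1 and 11.7 CPM, against 18.2 and 18.1 CPM, log2 fold change -0.68 ± 0.15, adjusted p = 0.0178), and so did CCNE1 (-0.65 ± 0.18, adjusted p = 0.0353) and CDK6 (-0.53 ± 0.16, adjusted p = 0.0483). CCND1, or cyclin D1, had 271, 283 and 212 CPM at D3, D6 and D9, against 172 and 177 CPM (adjusted p = 0.0679), and CDKN1B, or p27, had 15.7, 16.6 and 19.9 CPM at D3, D6 and D9, against 15.6 and 15.1 CPM (adjusted p = 0.426). Of 15 other regulators of G2 and mitotic entry 1 rose and 0 fell: WEE1, the kinase that holds CDK1 inactive, had 59.7, 66.8 and 56 CPM at D3, D6 and D9, against 40.5 and 43.5 CPM (log2 fold change 0.53 ± 0.14, adjusted p = 0.0349). CCNA2, or cyclin A2, had 38.5, 31.8 and 46.9 CPM at D3, D6 and D9, against 57 and 58.7 CPM, and narrowly missed the threshold (log2 fold change -0.57 ± 0.18, adjusted p = 0.0546).

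Among 19 other checkpoint and kinetochore genes 4 fell and 0 rose: SPC25 (-0.87 ± 0.14, adjusted p = 0.00762), CENPW (-0.74 ± 0.14, adjusted p = 0.0125), ZWINT (-0.65 ± 0.19, adjusted p = 0.0467) and ZWILCH (-0.58 ± 0.13, adjusted p = 0.0188), as log2 fold changes. SPC25 belongs to the same complex as NDC80 and NUF2, which had no call. Of 21 other spindle and cytokinesis genes CEP55 (-0.96 ± 0.18, adjusted p = 0.0107) and PBK (-0.78 ± 0.16, adjusted p = 0.0153) fell and CIT rose (0.60 ± 0.17, adjusted p = 0.0404). CDC23 was the 1 of 15 APC/C subunits that fell (-0.67 ± 0.16, adjusted p = 0.0216), and NCAPG the 1 of 11 condensin and cohesin genes (-0.66 ± 0.14, adjusted p = 0.0151). Of 44 S phase genes 3 fell and 0 rose, namely TIPIN (-0.89 ± 0.18, adjusted p = 0.0141), MCM5 (-0.61 ± 0.13, adjusted p = 0.0181) and CDC6 (-0.53 ± 0.14, adjusted p = 0.0313), with a list median of -0.15.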

How the data were processed

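Per the study's methods and the submitters' processing notes, reads were aligned with Cell Ranger 6.1.2 to GRCh38 with GENCODE annotation 32, cells with few UMIs, outlying mitochondrial share or a doublet-like gene number were removed by the authors, and counts were adjusted for the D0 captures. The deposited matrix holds expected counts (whole UMI counts after that adjustment, 12474 genes in 4101 cells). The other columns used hold cell names and gene symbols. The test had been chosen for plain counts and was kept for these adjusted ones. Counts were summed per library and tested with edgeR 4.0.16 (TMM, filterByExpr, glmQLFit) in R 4.3.3, with limma 3.58.1 and DESeq2 1.42.0 as alternatives. The fit had 3 residual degrees of freedom and a biological coefficient of variation of 0.171. On simulated counts with known changes it called 79 of 100 genes changed 2-fold and 6 of 11940 unchanged ones. The simulation gave all genes the same spread and held no differences between days and no adjustment of the D0 captures. These rates may therefore not hold for the real counts. Cells were thinned to 5000 UMIs, and the smallest held 5124. Doublets were not called again. Intervals for shares are exact binomial 95% intervals. Gene positions are from GENCODE 44 on GRCh38 and promoters from RefSeq. All members were accounted for by role, and levels in every library were given for the 3 members of each role group with the highest mean CPM, for each called member and for those with the opposite sign to their group. From the other lists up to 4 called genes each were named, largest change first, with FOXM1, MYBL2, CCNA2, CDKN1A, CDKN1B and CCND1 always, and the 15 other genes most correlated with the summed members. The members and lists were chosen with earlier results of these data known.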

Additional observations from a re-analysis of the deposited data

Results flagged for a closer look

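The afatinib effect differed between mitotic-transcript-high cells and the remaining cells of the same libraries for 36 of the 42 members that are no anchor genes, by the interaction term of the edgeR model (background 2.39%). The largest differences in log2 fold change, remaining minus high cells, were -1.26 ± 0.12 for DLGAP5, -1.17 ± 0.09 for CCNB1 and -1.15 ± 0.11 for CENPA, each with its standard error (adjusted p = 1.6e-09, 5.92e-13 and 7.28e-10). In thinned cells the count was 16 (0.583% of all genes) and CENPA was at -0.76 ± 0.21. The classes were cut on members that vary together with the 42, so the limit may hold the high cells alike, which was not tested. The difference between the classes cannot be told apart from a changed make-up of the remaining cells. Groups of 2 libraries and of 1 are too small for a check on single outlying samples.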

How the results depend on the processing

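The 9 fallen members kept a negative sign in all 16 alternatives, KNSTRN between -1.53 and -0.77, and none of the 50 members reversed across the threshold. Of 800 combinations of member and alternative, 692 kept their side of the threshold, 50 lost and 58 gained a call, and 58 changed sign with no call on either side (19 members, MKI67 in 10 and TACC3 in 9). The count of 9 fallen members became 16 with DESeq2 (13.6% of all genes), 5 with thinned cells (6.17%) and 0 with a linear trend (3.69%). It became 4 in mitotic-transcript-high cells (10.1%) and 31 in the remaining cells (8.6%). When 1 afatinib library was left out it became 3 to 32 (5.45% to 27.3%). Without untreated replicate 1 or 2 the member median was -0.30 and -0.25. The count of 2819 genes called became 1434 with thinned cells, 601 with a linear trend, and 239 to 6817 when 1 library was left out. Leaving out an untreated library leaves a lone sample in that group, which is assumed to vary like the others. The median of -0.29 became -0.36 without mitochondrial and ribosomal protein genes, -0.10 in high cells, -0.73 in the remaining cells and -0.15 without normalization factors, which moved the median of all genes to 0.19. Members past a 2-fold drop became 3, 5 and 1 at D3, D6 and D9 in thinned cells, against 810, 769 and 780 of all genes. Without mitochondrial and ribosomal protein genes they became 2 at D6 and 1 at D9 (728 and 853 of all genes). In cells under 10% mitochondrial counts they became 0 at D6 and 1 at D9 (529 and 870 of all genes). With 1 untreated library left out they were 1 to 2 at D6 (622 to 627 of all genes). The difference of -6.32 points in the share of high cells, afatinib minus untreated, became -11.2 with a limit of 3 anchor genes, -8.84 with another random seed and -23.9 without thinning. Without thinning, here and below, the depth of the cells differs between the groups. The difference in the level of the other 42 members in high cells (-0.63 UMIs per 5000) became 1.90 without thinning, and that in the remaining cells (-4.42) became -3.65 with another seed, -1.30 without thinning and -5.34 in cells under 10% mitochondrial counts. The difference of 14.5 points in cells without an anchor gene became 9.41 without thinning. The limits of 3 and 5 anchor genes gave 37 and 27 members in the interaction in place of 36 (2.51% and 1.44% of all genes). Thinned cells gave 16 (0.583% of all genes). The causes of these shifts were not tested. Settings for the interaction, the cells without an anchor gene, the 2 classes and the lack of normalization factors were chosen after seeing the data. No paired analysis was possible because each afatinib day has 1 library. Depth limits low members such as CDC25C, with 3.14% to 4.23% of thinned cells holding a UMI.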
